A study of Mus musculus with 12 samples.

Results

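The transcripts described here belong to 27 genes that mark nerve cells and the glia made by the neural crest, 17 neuronal (Tubb3, Stmn2, Stmn3, Stmn4, Elavl3, Elavl4, Dcx, Nefl, Nefm, Gap43, Prph, Snap25, Map2, Pou4f1, Neurod1, Ret and Isl1) and 10 glial (Sox10, Sox2, Foxd3, Mbp, Fabp7, Erbb3, Ednrb, S100b, Cdh19 and Ngfr). They were taken by symbol from tables of 53392 gene identifiers, and all 27 had a row. Polyadenylated RNA was sequenced from facial tissue of 129S4 mouse embryos in 12 libraries, 4 groups of 3. Palatal shelves, the outgrowths that form the roof of the mouth, were dissected at E13.5 from Pdgfra+/+ embryos and from PdgfraPI3K/PI3K embryos, which are homozygous for a knock-in allele of the receptor gene Pdgfra. Maxillary processes, the swellings from which the palatal shelves grow, were dissected at E11.5 from Srsf3fl/fl;Wnt1-Cre+/+ embryos, the control without the Cre transgene, and from Srsf3fl/fl;Wnt1-Cre+/Tg embryos, which carry it. Both maxillary groups were homozygous for a floxed allele of Srsf3, which encodes a splicing regulator, so those controls are not wild type at that locus. Wnt1-Cre is active in the neural crest, the lineage that gives rise to facial mesenchyme, to the glia of cranial nerves and to part of the cranial sensory neurons, so that endothelium, blood, muscle cells and placode-derived neurons are not its targets. The ectoderm of both tissues had been digested away with trypsin. The number of embryos behind a library is not given in the sources used here, so p-values measure the spread between these libraries.

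Neural crest cells that migrate into the face meet the branches of the trigeminal nerve, whose sensory neurons have their cell bodies in a ganglion outside the dissected tissue and send only axons into it. Schwann cell precursors, the crest-derived glia, travel along those axons; Sox10 and Foxd3 are transcription factors of the lineage, Erbb3 receives the axonal neuregulin signal, and Mbp is a protein of the later myelin sheath. Small parasympathetic ganglia also form near the palate, and their neurons make the receptor Ret and the intermediate filament peripherin (Prph). Several of the 27 genes are also made outside the nervous system, as Ngfr and Gap43 are in embryonic mesenchyme and Sox2 is in oral epithelium, so that a level in bulk tissue does not by itself count nerve or glial cells.

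Library totals ran from 30.5 to 37.4 M estimated counts in the palatal shelf and from 15.9 to 27.9 M in the maxillary process. Mesenchymal markers of the face were abundant in all 12 libraries, with a summed level of 8 genes from 1148 to 3529 TPM, where TPM is the deposited level scaled for transcript length and library depth. Marker genes of ectoderm (8 genes) summed to between 296 and 685 TPM in the 6 palatal libraries and to between 1.69 and 13.4 TPM in the maxillary ones, so epithelial transcripts were still present in the palatal tissue. The gene total of Srsf3 was 574 ± 25.5 CPM (normalised read count, scaled by library size and TMM factor; SD, n = 3) in the Wnt1-Cre+/+ and 586 ± 105 CPM in the Wnt1-Cre+/Tg libraries (edgeR adjusted p 0.9539). That total does not separate the maxillary groups, and every maxillary direction given here therefore rests on the labels; the libraries are written as labelled +/Tg. Pdgfra counts did not separate the palatal groups either (491 ± 18.6 and 498 ± 57.0 CPM, edgeR adjusted p 0.9997). Its TPM did, with 130.3 to 144.5 TPM in Pdgfra+/+ and 186 to 243.1 TPM in PdgfraPI3K/PI3K libraries. TPM also depends on transcript length, and the source of this difference was not tested. Library 1 labelled +/Tg stood apart, with 6 endothelial genes at a summed 321 TPM against 169 and 186 TPM in the other 2, and 6 red blood cell genes at 33200 TPM against 11810 and 17290 TPM. In the palatal shelf, 8 skeletal muscle genes summed to 60.1 TPM in Pdgfra+/+ library 1 against 4.54 and 8.60 TPM in the others, and to 250 TPM in PdgfraPI3K/PI3K library 1 against 39.6 and 140 TPM.

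Promoter windows of 16 of the 27 genes could be matched by symbol in RefSeq (build GRCm38.p6, the same assembly as mm10). The windows hold the 150 bases before the annotated start site, written 5′ to 3′ on the strand of the gene. Shown are Prph, Elavl3 and Elavl4, which are neuronal genes whose highest palatal levels lay in PdgfraPI3K/PI3K library 1 or 3, with Pou4f1, a neuronal gene near 0 in most libraries, and the glial gene Foxd3 for comparison. Capitals mark TATAAA, the core of a TATA box, and CAGCTG, an E-box form bound by proneural factors, which is its own reverse complement.
Prph (chr15:99055024-99055173, plus strand): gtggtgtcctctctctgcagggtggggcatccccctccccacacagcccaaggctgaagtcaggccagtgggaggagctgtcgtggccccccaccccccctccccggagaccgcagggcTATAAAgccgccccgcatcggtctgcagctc
Elavl3 (chr9:22052024-22052173, minus strand): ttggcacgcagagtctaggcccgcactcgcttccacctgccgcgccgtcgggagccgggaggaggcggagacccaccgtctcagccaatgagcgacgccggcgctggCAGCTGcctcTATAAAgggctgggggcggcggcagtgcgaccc
Elavl4 (chr4:110287528-110287677, minus strand, one of several start sites): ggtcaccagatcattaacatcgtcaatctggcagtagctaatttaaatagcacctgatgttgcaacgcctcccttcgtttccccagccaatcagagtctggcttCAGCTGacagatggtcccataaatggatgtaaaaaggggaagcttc
Pou4f1 (chr14:104468000-104468149, minus strand): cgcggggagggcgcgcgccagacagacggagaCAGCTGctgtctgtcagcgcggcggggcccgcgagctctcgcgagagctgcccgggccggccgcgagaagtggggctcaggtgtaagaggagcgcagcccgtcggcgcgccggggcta
Foxd3 (chr4:99656149-99656298, plus strand): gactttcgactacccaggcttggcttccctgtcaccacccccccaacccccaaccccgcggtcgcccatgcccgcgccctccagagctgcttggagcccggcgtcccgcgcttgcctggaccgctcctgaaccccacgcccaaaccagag
The TATAAA of Prph began 31 bases before its start site and that of Elavl3 33 bases before. Searched on both strands, TATAAA occurred in windows of 3 of the 16 genes (Dcx, Elavl3 and Prph) and in 7.57% of the 32851 windows of the whole RefSeq table. CAGCTG occurred in those of 5 genes (Elavl3, Elavl4, Isl1, Ngfr and Pou4f1) and in 8.39% of all windows. The same E-box letters thus stood before Elavl4, which was detected in all 12 libraries, and before Pou4f1, which was listed at 0 in 4 of them. Foxd3 had no match in its window to these letters or to the 3 others searched, ACAATG and ACAAAG, which SOX proteins bind, and TAATTA, a homeodomain core. These 3 occurred in 6.41%, 9.88% and 2.73% of all windows, and in those of 2, 2 and 1 of the 16 genes. The 16 genes had 20 windows, and a gene was counted if any of its windows held a match. The counts of genes are therefore not on the same scale as the shares of single windows.

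Levels of the neuronal genes spanned a wide range. By the median over the 12 libraries, 3 of the 17 lay at or above 10 TPM, 6 between 1 and 10 TPM and 8 under 1 TPM, whereas of the 10 glial genes 3 lay at or above 10, 6 between 1 and 10 and 1 under 1 TPM. The most abundant was Gap43, a growth cone protein of extending axons, with a lowest, median and highest level of 46.3, 84.7 and 105 TPM. Map2, a microtubule-associated protein of dendrites, followed among the neuronal genes with 11.9, 29.9 and 39.5 TPM, and Tubb3, the neuronal beta-tubulin, with 5.04, 14.2 and 73.9 TPM. Ngfr, the low-affinity neurotrophin receptor, led the glial genes with 9.89, 59.4 and 120 TPM. Gap43 and Map2 varied 2.27-fold and 3.32-fold between the extreme libraries, while Sox2 varied 114-fold.

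The transcription factors Pou4f1 and Neurod1 were close to absent. The first, the POU factor of trigeminal sensory neurons, was listed at 0 in 4 libraries and had its highest level, 0.408 TPM from 13 counts, in library 1 labelled +/Tg. Neurod1, a proneural bHLH factor, was listed at 0 in 6 libraries and reached 0.226 TPM, from 10 counts, in library 2 labelled +/Tg. Both stayed below the filter on low counts in every comparison, and so did Stmn4, a stathmin of neurons, whose highest level was 1.59 TPM. The transcription factor Isl1, shared by sensory, autonomic and motor neurons, differed from these: it stood at 3.81, 10.8 and 4.73 TPM in the Pdgfra+/+ and 7.93, 6.35 and 5.07 TPM in the PdgfraPI3K/PI3K palatal shelf. It stood at 0.632, 0.120 and 0.0332 TPM in the control maxillary process, from 5, 3 and 1 counts, and at 4.05, 1.12 and 0.263 TPM in that labelled +/Tg, from 49, 17 and 7 counts. The maxillary groups overlapped, with library 3 labelled +/Tg below control library 1, and Isl1 was too low there to be tested.

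**Figure D1:**
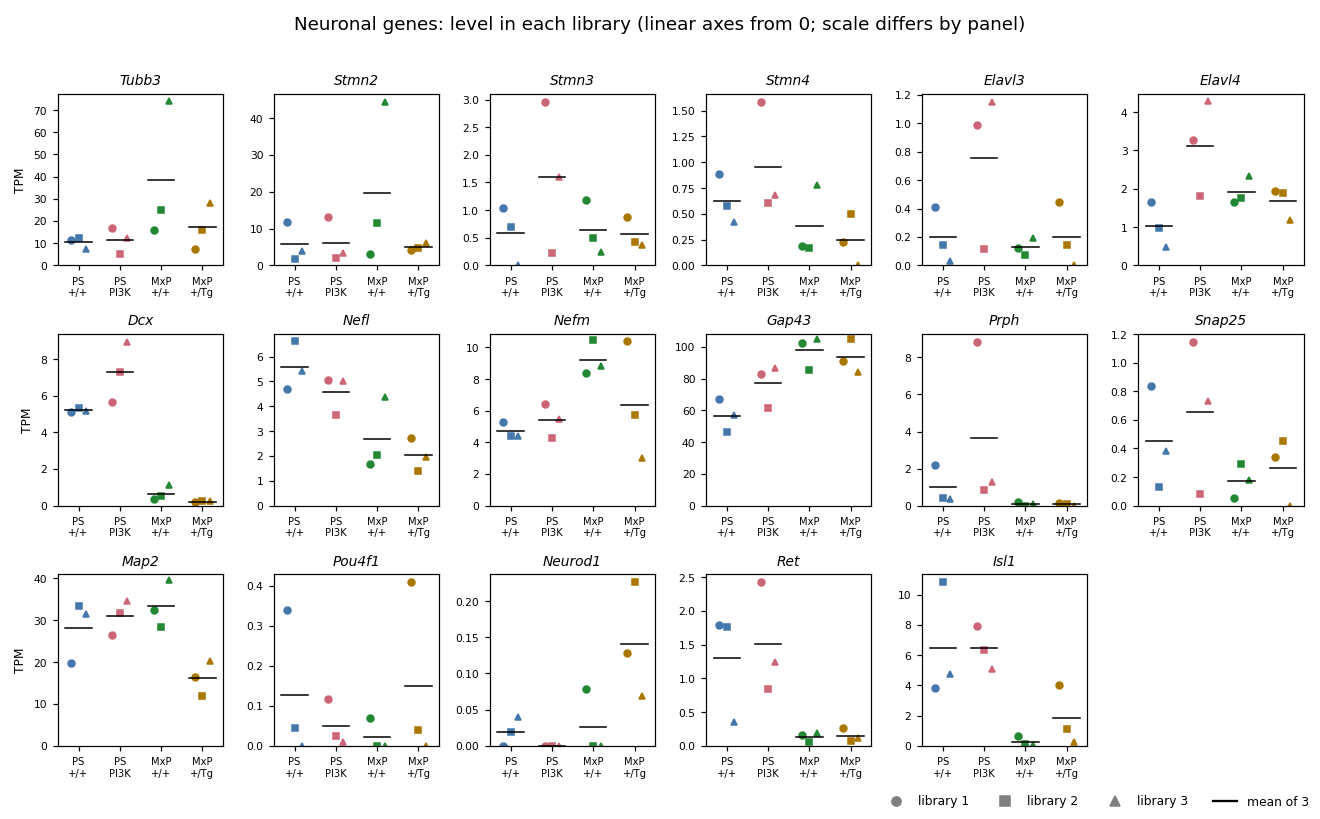
Level of each of the 17 neuronal genes in TPM (y axis, linear from 0, a separate scale per panel) in the 4 groups (x axis; PS, palatal shelf; MxP, maxillary process; +/+ and PI3K, Pdgfra genotype; MxP +/+ and +/Tg, Wnt1-Cre). Points are libraries, with the shape giving the library number, and bars are the mean of 3; control library 3 holds 73.9 TPM of Tubb3 and 44.4 TPM of Stmn2, and PdgfraPI3K/PI3K library 1 holds 8.82 TPM of Prph.

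Single libraries set several of the neuronal means. In the control maxillary process Tubb3 stood at 16.0, 24.9 and 73.9 TPM and Stmn2, a stathmin that regulates microtubules in growing axons, at 3.08, 11.6 and 44.4 TPM. Library 3 was the highest for both, 2.97 times and 3.84 times the middle library. That library had the highest level of 8 of the 17 neuronal genes among the 6 maxillary libraries (Tubb3, Stmn2, Stmn4, Elavl4, Dcx, Nefl, Gap43 and Map2) and the highest level of 4 of the 10 glial genes (Sox10, Foxd3, Erbb3 and Ngfr). The summed level of the 17 neuronal genes was 281 TPM there, against 169 and 166 TPM in the other controls and from 141 to 149 TPM in the libraries labelled +/Tg. Of 12 genes of the central neuroepithelium, 7 were listed at 0 in that library, and Emx2, a forebrain transcription factor, made up 75.4 of their summed 76.8 TPM, against sums from 7.51 to 13.4 TPM in the other 5 maxillary libraries. The part of forebrain tissue in the neuronal levels was not tested.

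In the palatal shelf, the highest level of 8 of the 17 neuronal genes fell in PdgfraPI3K/PI3K library 1 (Tubb3, Stmn2, Stmn3, Stmn4, Nefm, Prph, Snap25 and Ret) and that of 5 in PdgfraPI3K/PI3K library 3 (Elavl3, Elavl4, Dcx, Gap43 and Map2). Prph stood at 2.20, 0.395 and 0.356 TPM in the Pdgfra+/+ and at 8.82, 0.849 and 1.26 TPM in the PdgfraPI3K/PI3K libraries. In each group library 1 was the highest, and the groups overlapped. Stmn2 was also highest in library 1 of each group, with 11.7, 1.62 and 4.01 TPM in Pdgfra+/+ and 13.1, 1.87 and 3.36 TPM in PdgfraPI3K/PI3K libraries. Elavl3, an RNA-binding protein of neurons, stood at 0.411, 0.146 and 0.0315 TPM and at 0.992, 0.116 and 1.15 TPM, again with overlap. These libraries also differed in the levels of marker genes of other cells. Marker genes of autonomic neurons (8 genes, among them Hand2) summed to 5.30, 0.669 and 0.736 TPM in Pdgfra+/+ and to 10.0, 1.80 and 13.8 TPM in PdgfraPI3K/PI3K libraries, so that the same 3 libraries held the most Prph, the most Elavl3, the most autonomic and, as given above, the most muscle transcripts. The part of either in the member levels was not tested.

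**Figure D2:**
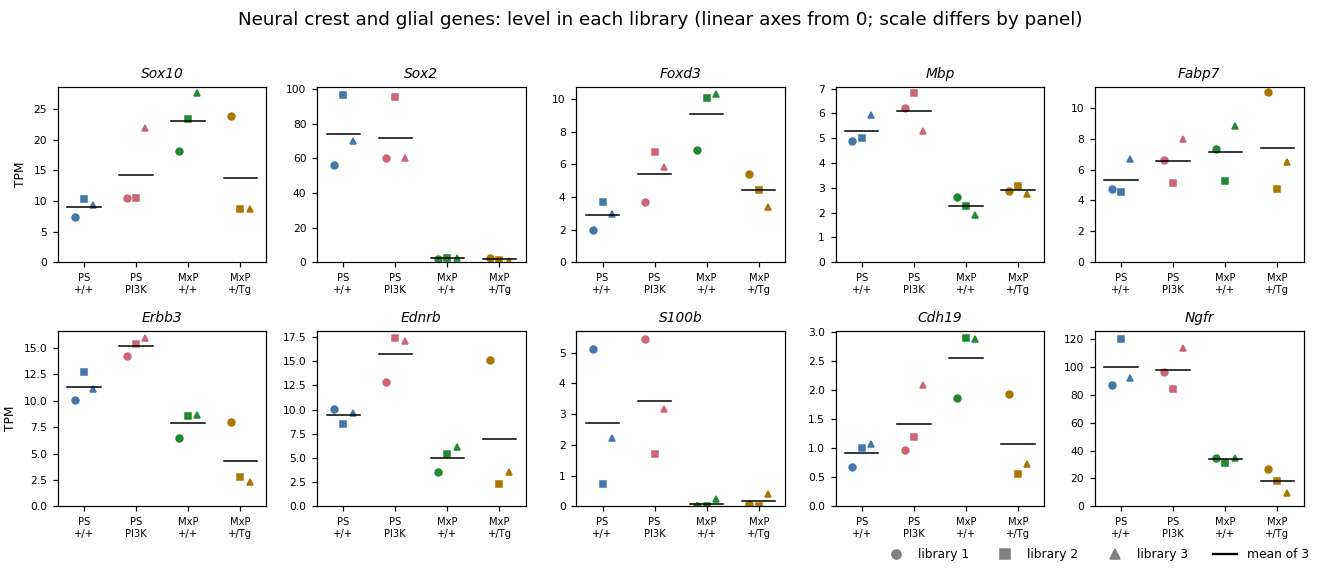
Level of each of the 10 glial genes in TPM (y axis, linear from 0, a separate scale per panel) in the same 4 groups of 3 libraries (x axis); points, shapes and bars as for the neuronal genes. Sox2 lies between 56.2 and 96.5 TPM in the palatal shelf and between 0.847 and 2.66 TPM in the maxillary process. The circles of library 1 labelled +/Tg lie above the other 2 libraries of their group for all genes but Mbp and S100b.

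The first comparison asked how these genes differed between PdgfraPI3K/PI3K and Pdgfra+/+ palatal shelves. No member passed a false discovery rate (FDR) of 0.05, and neither did any other gene (0 of 16525, 0%; edgeR quasi-likelihood test adjusted by the Benjamini-Hochberg method); DESeq2 called 5 genes, 0 of them members. After the filter on low counts 14 neuronal and 10 glial genes could be tested. Of the neuronal genes 11 had a level above and 3 a level below that of the Pdgfra+/+ group, with a median log2 difference of 0.33, and of the glial genes 8 stood above and 2 below, with a median of 0.39. Over all genes tested the median was -0.01 and 48.0% stood above. The neuronal median was 0.06 without PdgfraPI3K/PI3K library 1, 0.52 without PdgfraPI3K/PI3K library 2 and 0.57 without Pdgfra+/+ library 1, and it was 0.21 with no filter on low counts, 0.20 with a filter of 1 CPM and 0.16 with limma on log2(TPM + 1). In bulk tissue, a change in the number of cells of a type and a change in RNA per cell cannot be told apart.

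The glial receptors gave the clearest separation between the palatal groups. Ednrb, the endothelin receptor of neural crest and glial precursors, stood at 10.1, 8.46 and 9.68 TPM in the Pdgfra+/+ and at 12.9, 17.4 and 17.1 TPM in the PdgfraPI3K/PI3K libraries. All 3 PdgfraPI3K/PI3K libraries were above all 3 of Pdgfra+/+. On the count scale this was 20.7 ± 1.55 against 33.8 ± 5.52 CPM (SD, n = 3 each), a log2 difference of 0.71 (SE 0.14; 95% interval 0.37 to 1.05) with an unadjusted p of 0.001488 and an adjusted p of 0.9997 (edgeR); the smallest adjusted p over the alternatives was 0.06304, by DESeq2. Erbb3, the neuregulin receptor, stood at 10.0, 12.7 and 11.1 TPM against 14.2, 15.3 and 15.9 TPM, again without overlap, and its log2 difference was 0.43 (SE 0.11; adjusted p 0.9997, edgeR). Of the receptors, Ngfr did not share this order, with 87.5, 120 and 92.2 TPM in Pdgfra+/+ and 96.1, 83.9 and 113 TPM in PdgfraPI3K/PI3K libraries, which overlapped. Endothelium is another site of Ednrb. The 6 endothelial genes summed to between 178.5 and 194.3 TPM in Pdgfra+/+ and between 207.1 and 211.1 TPM in PdgfraPI3K/PI3K libraries. Of these genes 5 stood above and 1 below the Pdgfra+/+ level (median log2 difference 0.14), and their part in the Ednrb level was not tested.

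The transcription factors of crest glia also stood above the Pdgfra+/+ level in most libraries. Sox10 was at 7.31, 10.3 and 9.40 TPM in Pdgfra+/+ and at 10.6, 10.4 and 21.9 TPM in PdgfraPI3K/PI3K libraries; the groups did not overlap, but 2 of the 3 PdgfraPI3K/PI3K libraries lay close to the highest Pdgfra+/+ library. Its log2 difference was 0.68 with all libraries and 0.27 without PdgfraPI3K/PI3K library 3. Foxd3 was at 1.95, 3.71 and 2.97 TPM against 3.68, 6.76 and 5.81 TPM, with PdgfraPI3K/PI3K library 1 just under the highest Pdgfra+/+ library and a log2 difference of 0.92 (SE 0.32). Sox2, which marks glial precursors but also oral epithelium, was at 56.2, 96.5 and 70.0 TPM against 60.3, 95.2 and 60.0 TPM. Those groups overlapped fully.

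Among the neuronal genes, Elavl4 and Dcx separated the palatal groups. Elavl4, an RNA-binding protein of neurons, stood at 1.64, 0.963 and 0.489 TPM in Pdgfra+/+ and at 3.26, 1.81 and 4.29 TPM in PdgfraPI3K/PI3K libraries, a log2 difference of 1.30 (SE 0.34). Dcx, a microtubule-binding protein of immature neurons, stood at 5.11, 5.33 and 5.15 TPM against 5.67, 7.32 and 8.93 TPM, a log2 difference of 0.46 (SE 0.16). On the count scale Dcx was at 19.5 ± 2.49 against 26.9 ± 4.99 CPM (SD, n = 3 each). Gap43 was at 66.9, 46.3 and 56.9 TPM against 82.9, 61.4 and 86.5 TPM, with an overlap of 1 library in each group. The neurofilament genes Nefl and Nefm, and Map2, had log2 differences of -0.29, 0.20 and 0.12, with intervals that included 0. For 8 of the 22 members given with a fold change, the sign of the palatal difference turned in at least 1 alternative (Tubb3, Stmn2, Prph, Ret, Isl1, Sox2, S100b and Ngfr).

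In all, 5 of the 24 tested members had groups that did not overlap, each higher in PdgfraPI3K/PI3K libraries, where 6.23% of all genes tested did not overlap and 3.12% did so in that direction. An unadjusted p under 0.05 was reached by 6 members (Elavl4, Dcx, Gap43, Foxd3, Erbb3 and Ednrb), against 2.14% of all genes, or 1.53% in that direction. Without library 1 of both groups, the libraries with the most muscle transcripts in their groups, the neuronal median was 0.15 and the glial median 0.55, and this setting was chosen after seeing the data. Some wider lists pointed the same way by count, with no gene past the threshold. In these, 23 of 29 axon and synapse genes and 9 of 12 Schwann cell precursor genes stood above the Pdgfra+/+ level, with medians of 0.32 and 0.40. Others did not. Of 10 sensory neuron genes tested 5 stood above and 5 below (median -0.03), and of 3 melanoblast genes 1 stood above and 2 below (median -0.04). All 8 skeletal muscle genes and all 5 autonomic genes tested stood above the Pdgfra+/+ level, with medians of 2.63 and 1.78.

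**Figure D3:**
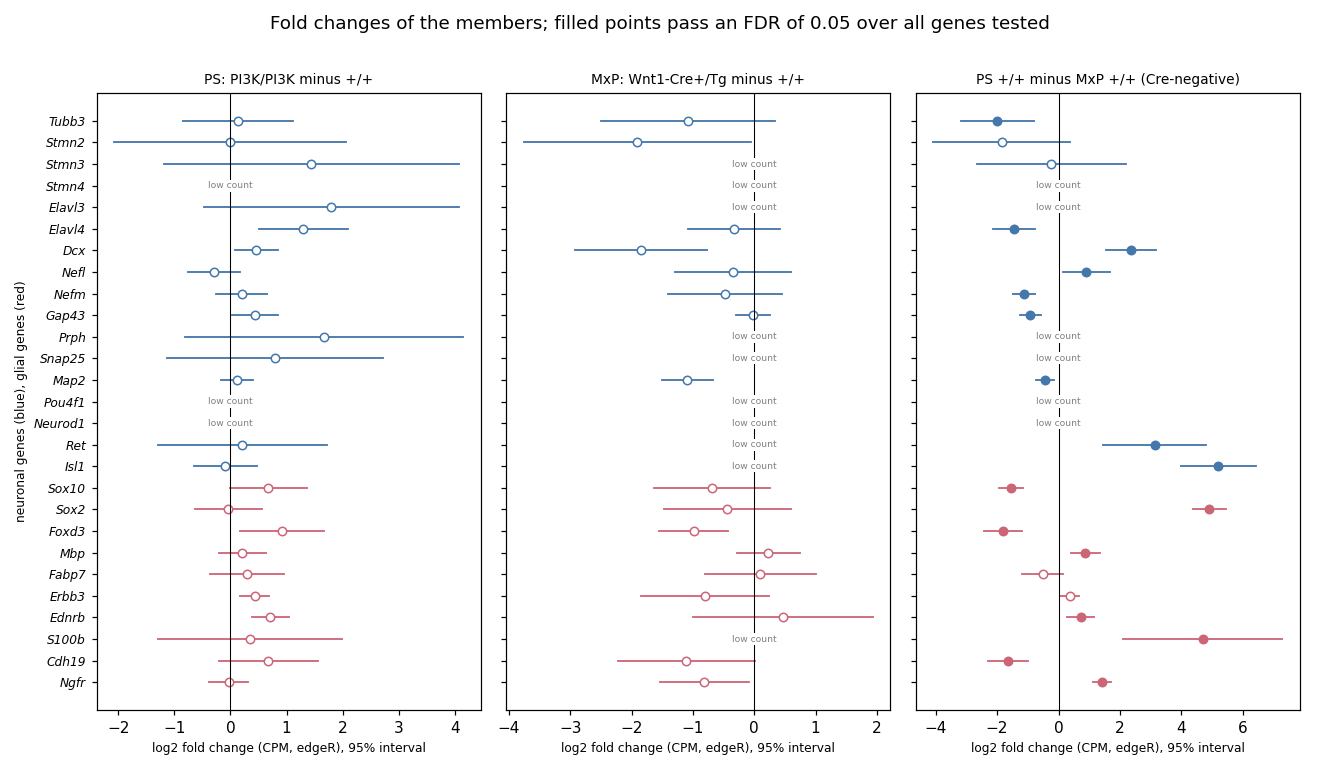
Log2 fold changes of the 27 genes (y axis; neuronal in blue, glial in red) with 95% intervals from edgeR (x axis, log2 of CPM) for the palatal genotypes, the maxillary genotypes and the Pdgfra+/+ palatal shelf minus the control maxillary process. Filled points pass an FDR of 0.05, which 0 members do in the first 2 panels and 17 in the third; "low count" marks genes that were not tested.

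The second comparison asked how the genes differed between maxillary processes labelled +/Tg and their controls. No member was among the 12 of 14254 tested genes under the FDR threshold of 0.05 (0.0842%, by edgeR as above). All 8 neuronal genes that could be tested had a level below the controls, with a median log2 difference of -0.78, and of 9 glial genes tested 6 were below and 3 above, with a median of -0.69; over all genes tested the median was 0.00 and 49.3% stood below. Another 9 neuronal genes and S100b were too low to be tested. By mean TPM, Isl1, Neurod1, Pou4f1, Elavl3, Snap25, Ret and S100b stood above the controls. Stmn3, Stmn4 and Prph stood below. The highest of these means was 1.81 TPM, for Isl1 in the libraries labelled +/Tg. The neuronal median was -0.25 with no filter on low counts, which admits more of these genes, and between -0.85 (without library 1 labelled +/Tg) and -0.22 (without library 3 labelled +/Tg) with 1 library left out; it was -0.55, -0.42 and -0.24 without control libraries 1, 2 and 3 and -0.40 without library 2 labelled +/Tg. Without control library 3, Nefl (0.15) and Gap43 (0.01) no longer stood below the controls. An unadjusted p under 0.05 was reached by 5 members (Stmn2, Dcx, Map2, Foxd3 and Ngfr), each lower, against 12.2% of all genes, or 5.91% in that direction. The groups did not overlap in 4 of the 17 (Dcx, Map2, Foxd3 and Ngfr), against 18.1% of all genes, or 9.37% in that direction.

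Map2 had the smallest adjusted p among the members. It stood at 32.4, 28.3 and 39.5 TPM in the controls and at 16.3, 11.9 and 20.2 TPM in the libraries labelled +/Tg. Every library labelled +/Tg lay below every control. On the count scale this was 54.2 ± 6.03 against 25.5 ± 6.18 CPM (SD, n = 3 each), a log2 difference of -1.09 (SE 0.18; 95% interval -1.51 to -0.67) with an adjusted p of 0.1028 by edgeR. The difference lay between -1.30 and -0.97 when any 1 library was left out, and its adjusted p ran from 1.57e-05 (DESeq2) to 0.3461 over the alternatives. A gene model on the opposite strand overlaps its exons.

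Other neuronal genes depended more on control library 3. Dcx stood at 0.335, 0.527 and 1.12 TPM in the controls and at 0.172, 0.233 and 0.239 TPM in the libraries labelled +/Tg, from 19 to 22 counts in the latter. The groups did not overlap, and the log2 difference was -1.85 (SE 0.46; adjusted p 0.2596, edgeR), or -1.30 without control library 3. DESeq2 and a fit over all 12 libraries called both Dcx and Map2. Tubb3 stood at 16.0, 24.9 and 73.9 TPM against 7.58, 16.1 and 28.1 TPM, with overlap, and its log2 difference of -1.08 was -0.23 without control library 3. For Stmn2, with 4.07, 4.64 and 6.06 TPM in the libraries labelled +/Tg, the log2 difference of -1.91 (adjusted p 0.3999, edgeR) became -0.48 without that library. Gap43, in contrast, was at 103, 85.6 and 105 TPM against 91.2, 105 and 83.9 TPM, a log2 difference of -0.02 with a 95% interval from -0.29 to 0.26.

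For Sox10, Erbb3, Cdh19 and Ednrb in the maxillary process, library 1 labelled +/Tg stood apart from the other 2 of its group. That library was also the highest of its group for Sox2, Foxd3, Fabp7 and Ngfr, but not for Mbp and S100b. The 10 glial genes summed to 97.8 TPM there, against 46.2 and 39.1 TPM in the other 2. Sox10 stood at 18.1, 23.4 and 27.6 TPM in the controls and at 23.9, 8.71 and 8.73 TPM in the libraries labelled +/Tg, so that library 1 lay among the controls and the other 2 below all of them. Erbb3 had the same order, with 6.44, 8.52 and 8.64 TPM against 7.95, 2.77 and 2.28 TPM, and so did Cdh19, a cadherin of Schwann cell precursors, with 1.87, 2.90 and 2.88 TPM against 1.93, 0.552 and 0.726 TPM. For Ednrb, library 1 labelled +/Tg lay above every control, with 3.50, 5.44 and 6.10 TPM against 15.1, 2.26 and 3.54 TPM. With all libraries the log2 differences of Sox10, Erbb3, Cdh19 and Ednrb were -0.69, -0.81, -1.11 and 0.46. Without library 1 labelled +/Tg they were -1.37, -1.58, -1.85 and -0.73, the glial median was -1.16, and Erbb3 passed the threshold (adjusted p 0.04403, edgeR). This is the library with the most endothelial and red blood cell transcripts, and endothelium is another site of Ednrb; the part of either in these values was not tested.

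Foxd3 and Ngfr separated the maxillary groups with library 1 included. Foxd3 stood at 6.88, 10.0 and 10.3 TPM in the controls and at 5.41, 4.41 and 3.41 TPM in the libraries labelled +/Tg, a log2 difference of -0.99 (SE 0.24; adjusted p 0.2512, edgeR) that DESeq2 called (0.02086). Its 95% interval ran from -1.55 to -0.42. Ngfr stood at 34.6, 31.4 and 34.9 TPM against 26.8, 18.4 and 9.89 TPM, a log2 difference of -0.82 (SE 0.31; adjusted p 0.3802, edgeR) that was -0.51 without library 3 labelled +/Tg and -1.19 without library 1. The controls lay within 1.11-fold of each other, and the libraries labelled +/Tg spread over 2.71-fold. Sox2 was near the bottom of the range in both groups, with 2.03, 2.24 and 2.41 TPM against 2.66, 1.23 and 0.847 TPM. Mbp, with 2.65, 2.27 and 1.92 TPM against 2.86, 3.09 and 2.76 TPM, and Fabp7, a fatty acid-binding protein of glial precursors, with 7.32, 5.28 and 8.81 TPM against 11.0, 4.72 and 6.48 TPM, had log2 differences of 0.23 and 0.10.

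Markers of other cells also stood off the control level. All 6 endothelial genes stood above the controls with an unadjusted p under 0.05, summing to between 169 and 321 TPM against 126 to 139 TPM, and 7 of 8 mesenchymal genes stood below, summing to between 1148 and 1880 TPM against 1937 to 2580 TPM. All 6 ectoderm genes tested (median log2 difference 1.81), all 5 macrophage genes (0.67) and all 6 red blood cell genes (0.49) stood above the controls too, the ectoderm genes summing to between 7.75 and 13.4 TPM against 1.69 to 6.60 TPM. No gene of these lists passed the threshold, and their part in the glial and neuronal values was not tested. The wider neural lists were not uniform. Of 5 sensory neuron genes tested 3 stood above and 2 below the controls (median 0.18), and of 2 autonomic genes 1 stood above and 1 below. Of the wider axon and synapse list 15 of 22 genes tested stood below the controls (median -0.26), and of the Schwann cell precursor list 9 of 11 (median -0.49), with 0 past the threshold in each. L1cam, an adhesion molecule of axons and their glia that is in both lists, had 15.1 ± 2.17 CPM in the controls and 6.96 ± 1.12 CPM in the libraries labelled +/Tg (log2 difference -1.12; adjusted p 0.1107, edgeR), and was named after its values were seen.

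**Figure D4:**
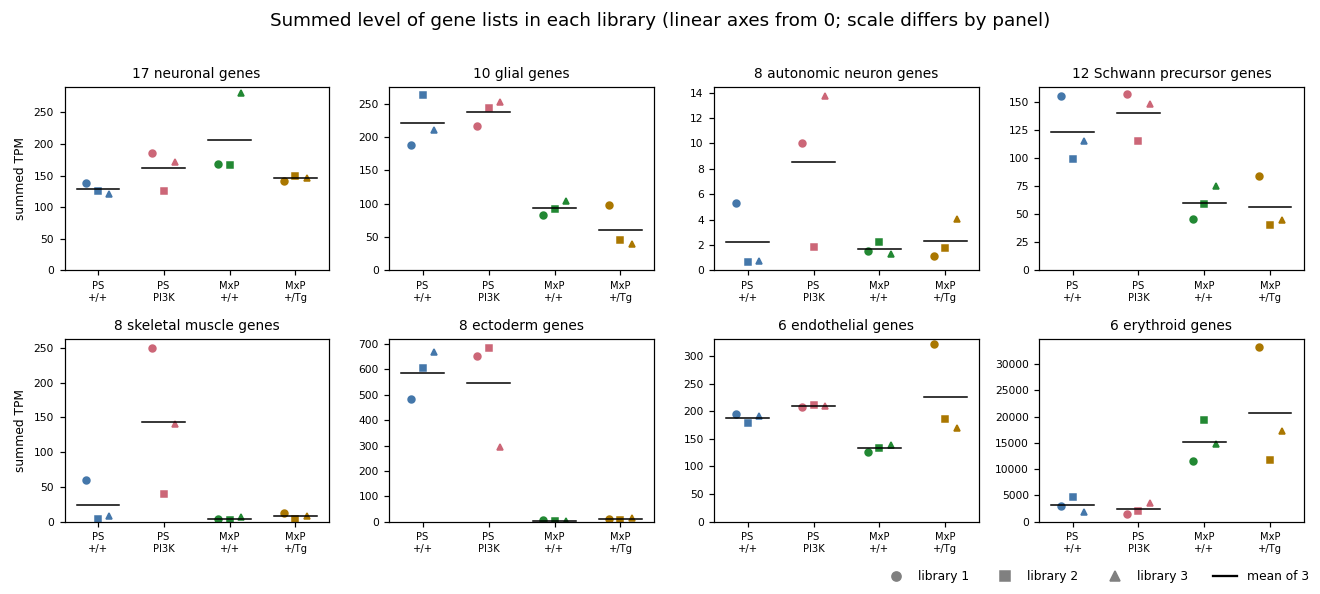
Summed level in TPM (y axis, linear from 0, a separate scale per panel) of the neuronal and glial genes and of 6 lists of marker genes of other cells in each of the 12 libraries (x axis; groups, shapes and bars as in the plots by gene). Muscle transcripts peak at 250 TPM in PdgfraPI3K/PI3K library 1, and endothelial transcripts at 321 TPM and red blood cell transcripts at 33200 TPM in library 1 labelled +/Tg.

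The third comparison set the Pdgfra+/+ palatal shelf at E13.5 against the control maxillary process at E11.5. Tissue, stage, sequencing lane (L002 against L004 in the labels), the floxed Srsf3 allele and the deposited table all differ together here and cannot be told apart. Both groups also serve as controls in the comparisons by genotype. By edgeR, 7965 of 15752 genes were under an FDR of 0.05 (50.6%), with 27.1% higher and 23.4% lower in the palatal shelf. Among the members 17 of 21 tested passed, 9 higher and 8 lower in the palatal shelf. The neuronal genes were split, with 4 higher and 5 lower of 11, and so were the glial genes, with 5 higher and 3 lower of 10. The direction of the 20 members given with a fold change did not turn in any of the alternatives run.

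Of the neuronal genes, Isl1, Ret and Dcx differed most. Isl1 rose from 0.186 ± 0.142 CPM in the maxillary process to 6.52 ± 1.99 CPM in the palatal shelf (SD over 3 libraries each). The log2 fold change was 5.20 (SE 0.52, adjusted p 0.0003516, edgeR). Marker genes of ectoderm were higher in the palatal shelf too, and the part of epithelium in the Isl1 level was not tested. Ret, the receptor for GDNF-family factors, stood at 0.162, 0.0525 and 0.189 TPM in the control maxillary process and at 1.79, 1.76 and 0.348 TPM in the palatal shelf, a log2 fold change of 3.12 (adjusted p 0.009121, edgeR). Dcx rose by a log2 fold change of 2.37 (adjusted p 0.001496, edgeR), with the palatal libraries between 5.11 and 5.33 TPM and the maxillary controls between 0.335 and 1.12 TPM. Lower in the palatal shelf were Tubb3 (log2 fold change -1.99), Elavl4 (-1.45), Nefm (-1.13), Gap43 (-0.92) and Map2 (-0.43). The calls of Tubb3, Elavl4 and Map2 were lost with limma on both log2(TPM + 1) and log2(TPM + 0.1). The call of Tubb3 was also lost without Pdgfra+/+ library 3, and its log2 fold change was -1.19 without control library 3. Map2 also lost its call without Pdgfra+/+ library 1 or 3 or control library 1, with the replicate block and in the fit over all 12 libraries. Nefl (0.91) passed by a narrow margin, with an adjusted p of 0.04939 (edgeR), and lost its call without each library but control library 3. Nefl and Nefm overlap each other on opposite strands, and the use of strand in the counting is not given in the sources used here.

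Among the glial genes, Sox2 had the smallest adjusted p. It rose from 2.64 ± 0.115 to 79.6 ± 21.6 CPM (SD over 3 libraries each), by 4.91 on the log2 scale (SE 0.23; adjusted p 2.02e-05, edgeR). Ngfr rose by 1.42 (adjusted p 0.000251, edgeR), Mbp by 0.88 and Ednrb by 0.72, the last losing its call without Pdgfra+/+ library 1 or 3. S100b, a calcium-binding protein of Schwann cells, stood at 5.11, 0.734 and 2.23 TPM in the palatal shelf, and its only counts in the control maxillary process were 4 in library 3, so its fitted log2 fold change of 4.70 (adjusted p 0.01014, edgeR) rests on that library and was 8.75 without it. The lineage markers Foxd3 (log2 fold change -1.80), Cdh19 (-1.65) and Sox10 (-1.55) fell, with all 3 palatal libraries below all 3 of the maxillary process for each. Erbb3 (0.36; adjusted p 0.05432, edgeR) missed the threshold and passed it in 7 alternatives, and Fabp7 (-0.52; 0.17) did not pass in any. Beside Sox2 and Ngfr, all 8 ectoderm genes were higher in the palatal shelf, with a median log2 fold change of 6.60, and the part of epithelium in the levels of Sox2 and Ngfr was not tested.

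Wider lists describe the same split. Of the axon and synapse genes tested, 6 of 24 were higher and 7 lower in the palatal shelf; Cntn2 rose by 2.33 and Crmp1 fell by 1.53 on the log2 scale. Of the 12 Schwann cell precursor genes 4 were higher and 4 lower. Pmp22 (2.16), a protein of peripheral myelin, Egr2 (4.97), a transcription factor of myelinating Schwann cells, and Gfra3 (1.01) were among those that rose, and Sox8 (-1.45), L1cam (-1.59) and Itga4 (-0.83) among those that fell. Pmp22 and Egr2 are also made outside glia. Of the sensory neuron list 8 of 16 genes could be tested and 6 were higher in the palatal shelf, led by Ntrk3 (6.62) and Ntrk2 (6.04), receptors for neurotrophins, but these included Shox2 (3.55) and Runx1 (3.03), which palatal mesenchyme or epithelium also makes. Between 4 and 7 of the 16 sensory genes were listed at 0 in each of these 6 libraries.

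Ligands and co-receptors that act on the receptors among the members were followed as a further set. In the palatal shelf by genotype no such gene passed the threshold. For the maxillary process, the neurotrophin genes Bdnf and Ntf3 stood below the controls in the libraries labelled +/Tg, without passing the threshold. Bdnf had 28.7 ± 3.37 against 17.6 ± 6.73 CPM (log2 difference -0.71; adjusted p 0.3802, edgeR) and Ntf3 17.2 ± 3.31 against 12.2 ± 2.07 CPM (-0.50; 0.382), with SD over 3 libraries each. GDNF-family ligands and co-receptors stood below in 5 of 7 and above in 2.

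Between the tissues, Bdnf fell from 29.9 ± 3.46 CPM in the control maxillary process to 3.88 ± 0.417 CPM in the palatal shelf (log2 fold change -2.94; adjusted p 2.664e-05, edgeR), and Ntf5 rose by 3.38. Of 7 GDNF-family genes tested 6 were higher in the palatal shelf, among them the co-receptor Gfra2 (3.68) and the ligands Artn (2.26) and Nrtn (2.23); Gdnf itself had 1.52 ± 0.319 and 1.52 ± 0.992 CPM. Of the neuregulin and endothelin genes 7 of 8 were higher there, with Erbb4 (3.88) and Edn1 (3.03) the most and Erbb2 (0.73), the partner of Erbb3, by less. Edn3, a ligand of Ednrb, had 17.4 ± 2.03 and 20.2 ± 1.76 CPM and did not pass.

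Effective length, the estimated count divided by TPM on the log2 scale, gives a view of transcript choice that the gene total does not. It moves when the mix of long and short transcripts of a gene moves. Of the genes with at least 50 counts in all 6 libraries, 1 of 12907 passed an FDR of 0.05 in the palatal shelf (0.00775%) and 1 of 11002 in the maxillary process (0.00909%; limma, Benjamini-Hochberg), and no member was among them (0 of 16 and 0 of 12; 0 and 0 at an unadjusted p under 0.05). Member shifts ran from -0.18 (Isl1) to 0.02 (Sox10) in the palatal shelf and from -0.16 (Mbp) to 0.04 (Stmn2) in the maxillary process. Map2, which has long and short neuronal transcripts, shifted by -0.08 in the libraries labelled +/Tg, with a 95% interval from -0.49 to 0.32 that spans both directions. Single-exon genes, such as Foxd3 and Sox2, cannot show such a shift. Foxd3 had shifts of 0.004 in the palatal shelf and 0.007 in the maxillary process. Tubb3, Nefl, Nefm, Gap43, Erbb3 and Ngfr stayed as close to 0, with shifts of 0.002 to 0.005 and of 0.006 to 0.008. Their ratio behaved like that of a gene with a single transcript length. The lack of a call for these genes therefore says little about their transcript choice. Exon use and splice junctions were not analysed here.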

How the data were processed

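RNA sequencing values for 12 libraries came from 2 tables for each tissue, a table of estimated counts and one of TPM. The authors made the deposited estimated counts and the deposited TPM values (scaled for transcript length and depth) with Salmon; the submitters' processing notes name Salmon 1.1.0, STAR 2.7.0, DESeq2 1.28.1 and build mm10, with no role or order. Annotation, trimming and strand are not given in the sources used here. Symbols came from GENCODE M21 (GRCm38), which 53355 identifiers matched and 37 did not. Groups were taken from the labels.

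Rounded counts went into edgeR 4.0.16 under R 4.3.3 (quasi-likelihood F-test, TMM, default filter on low counts, genotype or tissue as the only term, each comparison on its own 6 libraries, Benjamini-Hochberg over all genes, FDR 0.05). Effective length was tested with limma 3.58.1. The tests were tried on simulated data. Alternatives were other normalisations, filters, thresholds, limma on log2 TPM with a pseudocount of 1 or 0.1, DESeq2 1.42.0, a replicate block, a fit over all 12 libraries and leaving out each library. Standard errors derive from the F statistic, and no fold change is given for a member with a mean under 1 CPM in both groups compared.

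The members, the gene lists and the naming rule were chosen with earlier results of these data known. All 27 members are named; of the other lists, the rule named up to 6 genes past the threshold with the largest change and the 2 with the highest mean TPM, and other names, among them Bdnf and Ntf3 in the maxillary process and the less changed genes of each list, were chosen after their values were seen. Some genes of these lists are not reported here by name. Between 0% and 6.56% of the 31-base stretches of a member's transcripts also occur in another gene, most in Neurod1 (6.56%), Foxd3 (5.54%), Elavl3 (3.75%) and Tubb3 (3.21%). Same-strand exons of another gene overlap 3 members (Elavl3, Neurod1 and Foxd3) and opposite-strand exons 4 (Nefl, Nefm, Map2 and Neurod1), so their counts are less certain.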

Additional observations from a re-analysis of the deposited data

How the results depend on the processing

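With 3 libraries a group, calls by genotype depended on the tool and calls by tissue less so. In the palatal shelf 0 genes and 0 members passed in every setting except DESeq2, which called 5 genes. In the maxillary process, where 12 genes and 0 members passed, 36 genes passed at an FDR of 0.1, 143 with no filter on low counts, 356 by DESeq2, 40 with the replicate block, 7 with limma on log2(TPM + 1) and 105 in the fit over all 12 libraries; the members called were 1 (Map2) with no filter, 3 (Dcx, Map2 and Foxd3) by DESeq2 and 2 (Dcx and Map2) over all 12 libraries. Leaving out 1 library gave 2 genes (without control library 2) to 29 (without library 1 labelled +/Tg) and 0 to 1 members, and a glial median from -1.16 to -0.44. The replicate block called 0 genes in the palatal shelf, 0 members by genotype, and 6835 genes with 17 members by tissue, where Erbb3 was called and Map2 was not. Same-numbered libraries did not all deviate together (correlations of 0.52, 0.22 and -0.22 in the palatal shelf, 0.08, 0.12 and 0.22 in the maxillary process), so the numbers were not taken to pair them. Without library 1 of both palatal groups the glial median was 0.55, and Tubb3 (-0.20) and Ret (-0.012) turned sign. Other turns of sign in the palatal shelf were Stmn2 with upper quartile scaling (0.006036), log2(TPM + 1) (0.024) and log2(TPM + 0.1) (0.033), and Isl1 (0.10 and 0.13 by the latter pair); in the maxillary process Fabp7 turned with log2(TPM + 0.1) (-0.0031). With 1 library left out, log2 differences in the palatal shelf ran from -0.27 to 0.48 for Tubb3, -1.25 to 1.06 for Stmn2, -0.039 to 3.07 for Prph, -0.31 to 0.53 for Ret, -0.23 to 0.19 for Isl1, -0.32 to 0.21 for Sox2, -0.15 to 1.23 for S100b and -0.12 to 0.13 for Ngfr, and in the maxillary process from -0.63 to 0.15 for Nefl, -0.11 to 0.070 for Gap43, -0.31 to 0.34 for Fabp7 and -0.73 to 0.88 for Ednrb. Between tissues the neuronal median of -0.43 was 0.28 with no filter, 0.26 over all 12 libraries and 0.36 without Pdgfra+/+ library 3 (-0.69 to 0.36 over all libraries left out), and the glial median of 0.54 was 0.72 with log2(TPM + 0.1) and 0.37 without control library 1 (0.37 to 0.60 over all libraries left out). The share of called genes that were higher in the palatal shelf was 53.7% against 70.9% and 71.3% with limma on log2(TPM + 1) and log2(TPM + 0.1), and the median of all genes moved from 0.03 to 0.16 and 0.19 there and to 0.29 with no filter. The cause of each of these was not tested.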
